A study of Homo sapiens with 16 samples.

Results

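The mitotic kinase, kinetochore and checkpoint genes were a set of 49 genes that carry a cell from the start of mitosis to its division, chosen by name and matched by symbol to the gene identifiers of the count table. All 49 were found among the 58735 identifiers, and all 49 had enough counts to be tested in both cell lines. RNA had been sequenced from 16 cultures in 4 groups of 4 biological replicates. NT2/D1 cells (labelled NTERA-2), an embryonal carcinoma (EC) line, and TCam-2 cells, a seminoma (SEM) line, were transfected with 25 nM of a synthetic mimic of the microRNA MIR9-2-5p or of a scrambled control, and all cultures were collected after 3 days. Each tumour type was represented by a single established line, both from testicular germ cell tumours. The lines were grown in different media, DMEM for NT2/D1 and RPMI for TCam-2, so line and medium cannot be told apart.

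Mitosis begins when the kinase CDK1, bound to cyclin A or B, is switched on by CDC25 phosphatases, which remove the phosphates that WEE1 and PKMYT1 place on it. Chromosomes then attach to the spindle through the kinetochore, which is built on centromeres marked by the histone variant CENP-A, and the spindle checkpoint (BUB and MAD proteins and the kinase TTK) holds the cell until every kinetochore is attached. Once the checkpoint is satisfied, the anaphase-promoting complex with CDC20 marks securin and cyclin B for destruction, separase cuts the cohesin rings, and the cell divides. Most of these genes are transcribed late in the cell cycle, so their RNA in a culture rises and falls with the share of cells in G2 and M phase. In RNA from whole cultures, fewer cells in mitosis and less RNA per mitotic cell cannot be told apart.

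The libraries held 14167738 to 22427162 counts. The seminoma gene SOX17 averaged 237 to 280 counts per 1000000 (CPM, normalised by the TMM method) in the TCam-2 groups and was at or near 0 in NT2/D1, whereas the EC gene SOX2 averaged 368 CPM in scrambled NT2/D1 and 1.55 CPM in scrambled TCam-2. POU5F1 and NANOG, which mark both tumour types, averaged 1700 and 247 CPM in scrambled NT2/D1 and 2900 and 570 CPM in scrambled TCam-2. Both lines thus expressed them, at a lower level in NT2/D1. Of the other seminoma markers NANOS3 was low in TCam-2 (6.11 to 10.2 CPM in the scrambled libraries). The summed CPM of 8 EC markers was 5840 to 6050 in scrambled NT2/D1 and 1600 to 1690 with the mimic, and all 8 fell there. It was 4260 to 4660 in scrambled and 3830 to 4070 in mimic-treated TCam-2, so mimic-treated NT2/D1 had the lowest EC marker sum of the 4 groups. That sum includes the shared POU5F1 and NANOG, at 467 and 64.8 CPM in mimic-treated NT2/D1 and 2410 and 910 CPM in mimic-treated TCam-2. Mean SOX2, DNMT3B and GDF3 in mimic-treated NT2/D1 stayed above both TCam-2 groups. TDGF1 was below both, and LIN28A and SALL4 lay between them, so the sum does not rank the lines by EC identity. Of 9 fibroblast markers, 7 were tested in each line. In NT2/D1 5 rose and 1 fell, with summed CPM of 512 to 607 in scrambled cells and 609 to 697 with the mimic, and in TCam-2 6 fell, from 474 to 494 summed CPM to 191 to 212, with DCN and FAP at or near 0 in all groups. The share of counts from mitochondrially encoded genes was 4.72% to 5.46% in scrambled and 4.16% to 4.53% in mimic-treated NT2/D1, and 3.63% to 4.01% and 1.85% to 2.18% in TCam-2. The part of these differences in the results below was not tested.

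The mimic acts through its seed, bases 2 to 8, which pairs with complementary sites in the 3′ untranslated region (3′ UTR) of a messenger RNA. The mature RefSeq sequence of hsa-miR-9-5p from the MIR9-2 locus (GRCh38.p14, chr5:88666902-88666924, minus strand) is shown with its seed in capitals, followed by the 6 member sites that match the whole seed, with the 7 matching bases (ACCAAAG) in capitals.
hsa-miR-9-5p: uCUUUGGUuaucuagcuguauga
HMMR: aacattttttACCAAAGtgtcttt
CDCA8: gacACCAAAGttgacag
KNL1: tcatctttgtACCAAAGgtttaag
CENPU: ctgaatttacACCAAAGctaattt
BUB3: gtctaagatcACCAAAGtggctaa
MAD2L1: tttcacactgACCAAAGcaagtga
These windows lie in the longest annotated 3′ UTR of each gene on GRCh38, at chr5:163491296-163491319 (plus strand) for HMMR, chr1:37708367-37708383 (plus) for CDCA8, chr15:40662399-40662422 (plus) for KNL1, chr4:184694934-184694957 (minus) for CENPU, chr10:123169551-123169574 (plus) for BUB3 and chr4:120057339-120057362 (minus) for MAD2L1. The CDCA8 window is shorter because its site lies at the start of the 3′ UTR, next to the coding sequence, with its last 6 bases from base 5. None of the 49 members held the strongest type of site, the 8mer ACCAAAGA, which was present in 6.33% of the tested genes with a 3′ UTR in either line. The 7-base site was the best site of 6 members (12.2%, against 11.8% of all such genes tested in NT2/D1 and 11.4% in TCam-2), weaker 7-base and 6-base sites were the best of 2 and 7 members, and 34 members (69.4%, against 47.2% and 47.4%) had none. The 34 members with no site had a median log2 fold change of -0.20 with the mimic in NT2/D1 (TCam-2, -0.80), and the 6 with the 7-base site had medians of -0.23 and -0.33. Over all genes tested the medians were 0.02 and -0.17 without a site and 0.07 and 0.11 with the 7-base site. The members with the site were not the more reduced in TCam-2, and a match of letters is a description and not evidence of binding.

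The members fell more in TCam-2 than in NT2/D1. With the mimic 41 of the 49 were lower, 2 were higher and 6 did not pass in TCam-2, whereas in NT2/D1 24 were lower, 2 were higher and 23 did not pass, where a call needed a Benjamini-Hochberg adjusted p (edgeR quasi-likelihood test, all genes tested) of under 0.05. Among all genes tested, 32.7% were called lower and 33.7% higher in TCam-2, and 29.1% lower and 30.2% higher in NT2/D1. The median log2 fold change of the members was -0.70 in TCam-2 and -0.21 in NT2/D1, beside 0.02 and -0.02 over all genes tested. The response was lower in TCam-2 than in NT2/D1 for 38 of 49 members, beside a median difference of response of 0 over all genes tested. In TCam-2 all 4 mimic libraries were below all 4 scrambled libraries for 38 members (29.5% of all genes) and above them for 2 (29.5%), against 18 (24.6%) and 1 (27.4%) in NT2/D1.

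Most falls in NT2/D1 were small. When a change was tested against a fold change of 1.5 rather than against 0, 23 members were lower and 1 was higher in TCam-2 (11.8% and 13% of all genes), and 1 was lower and none was higher in NT2/D1 (9.75% and 12.5% of all genes; edgeR glmTreat). The member that passed in NT2/D1 was AURKB, and the member that was higher in TCam-2 was CENPH. The difference of response exceeded that fold for 13 members with the higher response in NT2/D1 (14.1% of all genes) and for 1 with the lower (12.7%). By both tests of 0 change, 20 members were lower in both lines, 19 were lower in TCam-2 and not called in NT2/D1, and 2 (SPC24 and CENPN) were lower in NT2/D1 and not called in TCam-2. CDC25B and ANLN rose in NT2/D1 and fell in TCam-2, CENPH and CENPK did the reverse, and KNL1, BUB1B, PRC1 and ECT2 passed in neither line. How many of all genes had each of these joint calls was not counted, so they are not read as particular to the members. The difference of response, NT2/D1 minus TCam-2, tested as an interaction over all 16 libraries, was called for 33 members, 30 with a higher response in NT2/D1 (27.9% of all genes) and 3, CENPH, CENPK and BUB1B, with a lower one (25.3% of all genes). The median difference of the members was 0.48 on the log2 scale and 0 over all genes. Under RLE, upper-quartile and DESeq2 scaling the members called lower numbered 23 to 33 in NT2/D1 and 39 to 41 in TCam-2, and those with a higher response in NT2/D1 numbered 26 to 30.

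**Figure D1:**
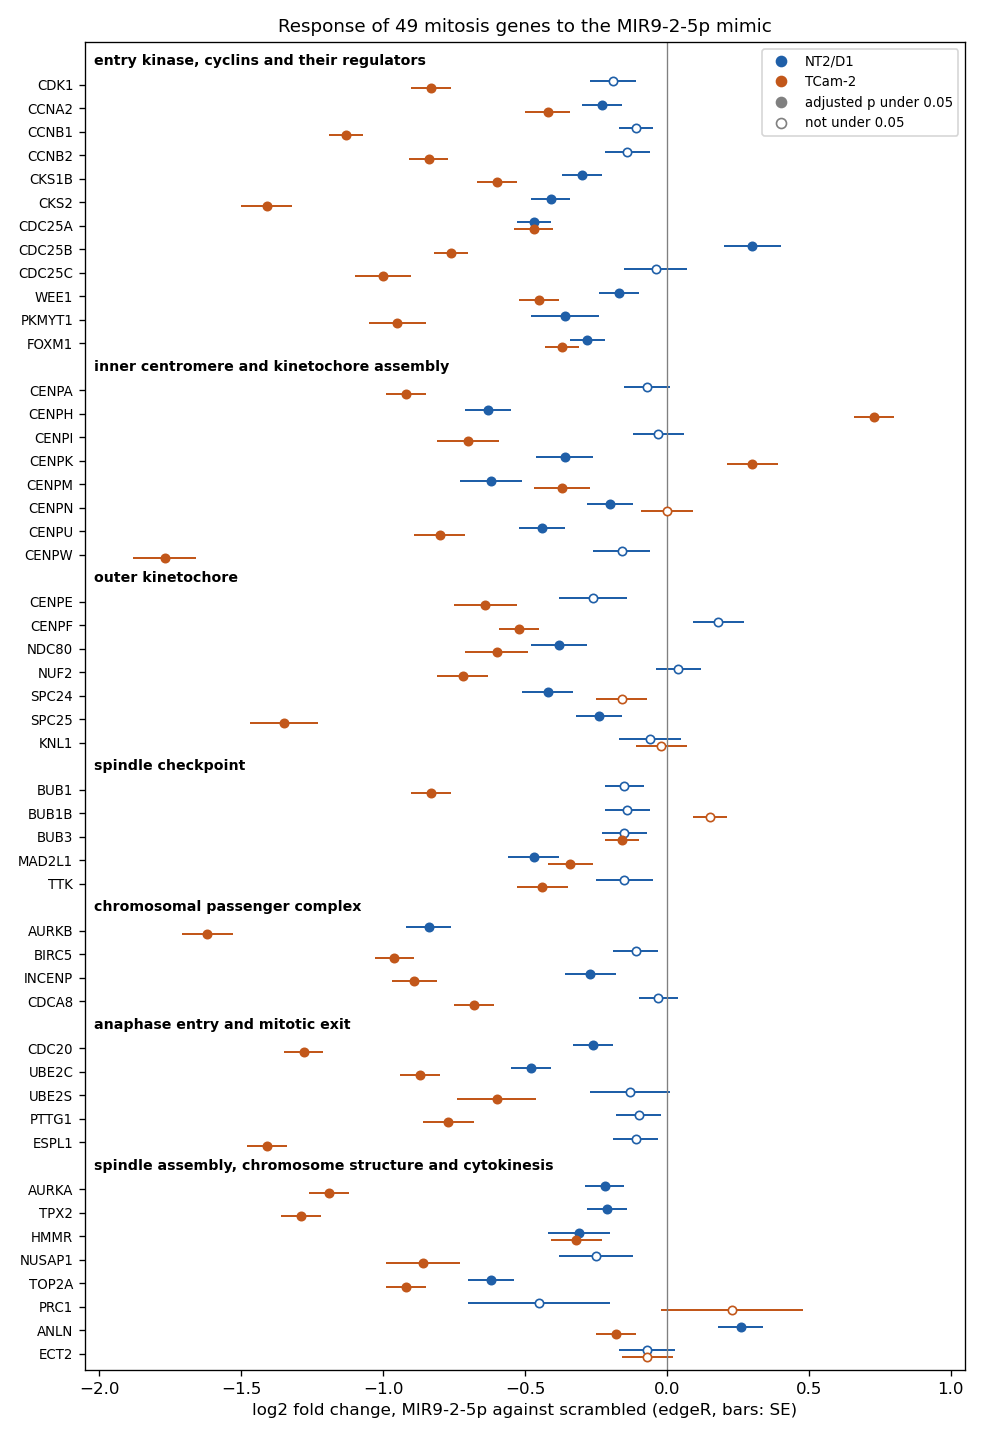
The log2 fold change of MIR9-2-5p against scrambled cells is plotted for each of the 49 members, ordered by role, in NT2/D1 (blue) and TCam-2 (orange), with the standard error from edgeR, and filled points have an adjusted p under 0.05. TCam-2 points lie to the left of NT2/D1 points for 38 members. CENPH and CENPK, called in both lines, lie on opposite sides of 0 in the other order, as do BUB1B and PRC1, which were called in neither line.

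The CDK1 engine and its regulators were reduced as a whole in TCam-2. All 12 members of this role fell there (median log2 fold change -0.80), and NT2/D1 had 7 falls, 1 rise and 4 members that did not pass (median -0.21). The response was higher in NT2/D1 for 9 of the 12 and lower for none. Counts of this and the following roles are to be read beside the shares of all genes. These were 32.7% lower and 33.7% higher in TCam-2, and 29.1% and 30.2% in NT2/D1. A higher and a lower response in NT2/D1 were called for 27.9% and 25.3%. CDC25A (chr3:48157146-48188417, minus strand), the phosphatase that also acts at the start of S phase, was at 141, 138, 140.0 and 136 CPM in the scrambled and 101, 102, 101 and 99.5 CPM in the mimic-treated libraries of NT2/D1. In TCam-2 it was at 58.1, 70.8, 67.7 and 66.2 CPM in scrambled and 49, 46.8, 45.3 and 46.8 CPM in mimic-treated cells. Every mimic library was below every scrambled library of its line, and CDC25A had the smallest adjusted p of the role in NT2/D1. Its log2 fold change was -0.47 in both lines (SE 0.06 and 0.07, edgeR adjusted p = 6.13e-06 and 1.5e-05), and the difference of response was 0.02 (SE 0.09, edgeR adjusted p = 0.867).

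CCNB1 (cyclin B1, chr5:69167135-69178245, plus strand), the partner with which CDK1 enters mitosis, had the smallest adjusted p of the role in TCam-2 and in the difference of response. In NT2/D1 it was at 161, 167, 175 and 172 CPM in scrambled and 151, 158, 156 and 162 CPM in mimic-treated libraries, which overlapped. In TCam-2 it was at 175, 198, 193 and 192 CPM in scrambled and 86.3, 82.7, 90.3 and 83.9 CPM in mimic-treated libraries, so every mimic library was below 91 CPM. For CCNB1 the log2 fold change was -0.11 in NT2/D1 (SE 0.06, edgeR adjusted p = 0.14) and -1.13 in TCam-2 (SE 0.06, edgeR adjusted p = 5.25e-11), a difference of 1.04 (SE 0.08, edgeR adjusted p = 1.69e-10). CCNB1 was called lower in NT2/D1 with upper-quartile factors (-0.18, edgeR adjusted p = 0.0191), among genes with a mean count of at least 100 (-0.14, edgeR adjusted p = 0.041) and among protein-coding genes alone (-0.15, edgeR adjusted p = 0.0463). CDK1 itself, named here after its values were seen, was at 151 to 157 CPM in scrambled and 77.3 to 97.8 CPM in mimic-treated TCam-2, and at 92.3 to 107 and 77.2 to 99.3 CPM in NT2/D1. It fell by 0.83 on the log2 scale in TCam-2 (SE 0.07, edgeR adjusted p = 2.12e-08), and its log2 fold change in NT2/D1 was -0.19 (SE 0.08, edgeR adjusted p = 0.0684), a value that passed without mimic replicate 3 or scrambled replicate 1 (lowest edgeR adjusted p = 0.0336) and with upper-quartile factors (-0.26, edgeR adjusted p = 0.0163).

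CDC25B (chr20:3786772-3806121, plus strand), the phosphatase that first activates CDK1 at the centrosome, went the other way in NT2/D1. It was at 74.3, 52.7, 58.5 and 70.1 CPM in scrambled and 77.8, 83.2, 79.7 and 74.8 CPM in mimic-treated NT2/D1, where the highest scrambled and the lowest mimic library nearly touched. In TCam-2 it was at 148, 159, 155 and 152 CPM in scrambled and 89.8, 92.8, 84.7 and 92.1 CPM in mimic-treated cells, with no overlap. For CDC25B the log2 fold change was 0.30 in NT2/D1 (SE 0.10, edgeR adjusted p = 0.0135) and -0.76 in TCam-2 (SE 0.06, edgeR adjusted p = 6.67e-09). The responses differed by 1.08 (SE 0.12, edgeR adjusted p = 2.21e-08). The call in NT2/D1 was lost without scrambled replicate 3 (0.26, edgeR adjusted p = 0.0568), while the rise was 0.22 to 0.38 over the fits that left out a library. The third phosphatase, CDC25C, was low in all groups, at group means of 8.85 to 17.9 CPM, and fell in TCam-2 (log2 fold change -1.0), with a log2 fold change of -0.04 in NT2/D1 (edgeR adjusted p = 0.793).

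The remaining members of the role fell in TCam-2 by 0.37 to 1.41 on the log2 scale. The largest of these falls was that of CKS2, a small subunit that binds CDK1, which went from 94.8 ± 12.6 to 35.3 ± 2.29 CPM in TCam-2 and from 119 ± 7.36 to 90.2 ± 3.98 CPM in NT2/D1 (SD, n = 4). Its relative CKS1B fell by 0.60 in TCam-2 and 0.30 in NT2/D1, and shares sequence with 7 pseudogene copies, among which counting could have split its reads. CCNA2 fell by 0.42 in TCam-2 and 0.23 in NT2/D1. CCNB2 fell by 0.84 in TCam-2 and had a log2 fold change of -0.14 in NT2/D1 (edgeR adjusted p = 0.131), which passed with upper-quartile factors (-0.21, edgeR adjusted p = 0.026). WEE1 and PKMYT1, the kinases that hold CDK1 inactive, fell by 0.45 and 0.95 in TCam-2 and by 0.17 and 0.36 in NT2/D1, in the same direction as the kinase they restrain. FOXM1, a transcription factor for late cell cycle genes, had the smallest fall of the role in TCam-2, at -0.37, and fell by 0.28 in NT2/D1 with no called difference between lines (0.11, edgeR adjusted p = 0.262). Genes on the opposite strand overlap 31.9% of the exon length of PKMYT1 and 15.9% of that of FOXM1, and their reads may have been counted with these members. The calls for WEE1 and PKMYT1 in NT2/D1 were lost in 5 and 4 of the 8 fits that left out a library (highest edgeR adjusted p = 0.0994 and 0.0811), and that of CCNA2 with no filter on low counts (-0.20, edgeR adjusted p = 0.057). CCNA2, CCNB1, CDC25A and CDK1 in TCam-2, and CDC25A and WEE1 in NT2/D1, were shown by the study from these same libraries, so their direction is not independent evidence.

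**Figure D2:**
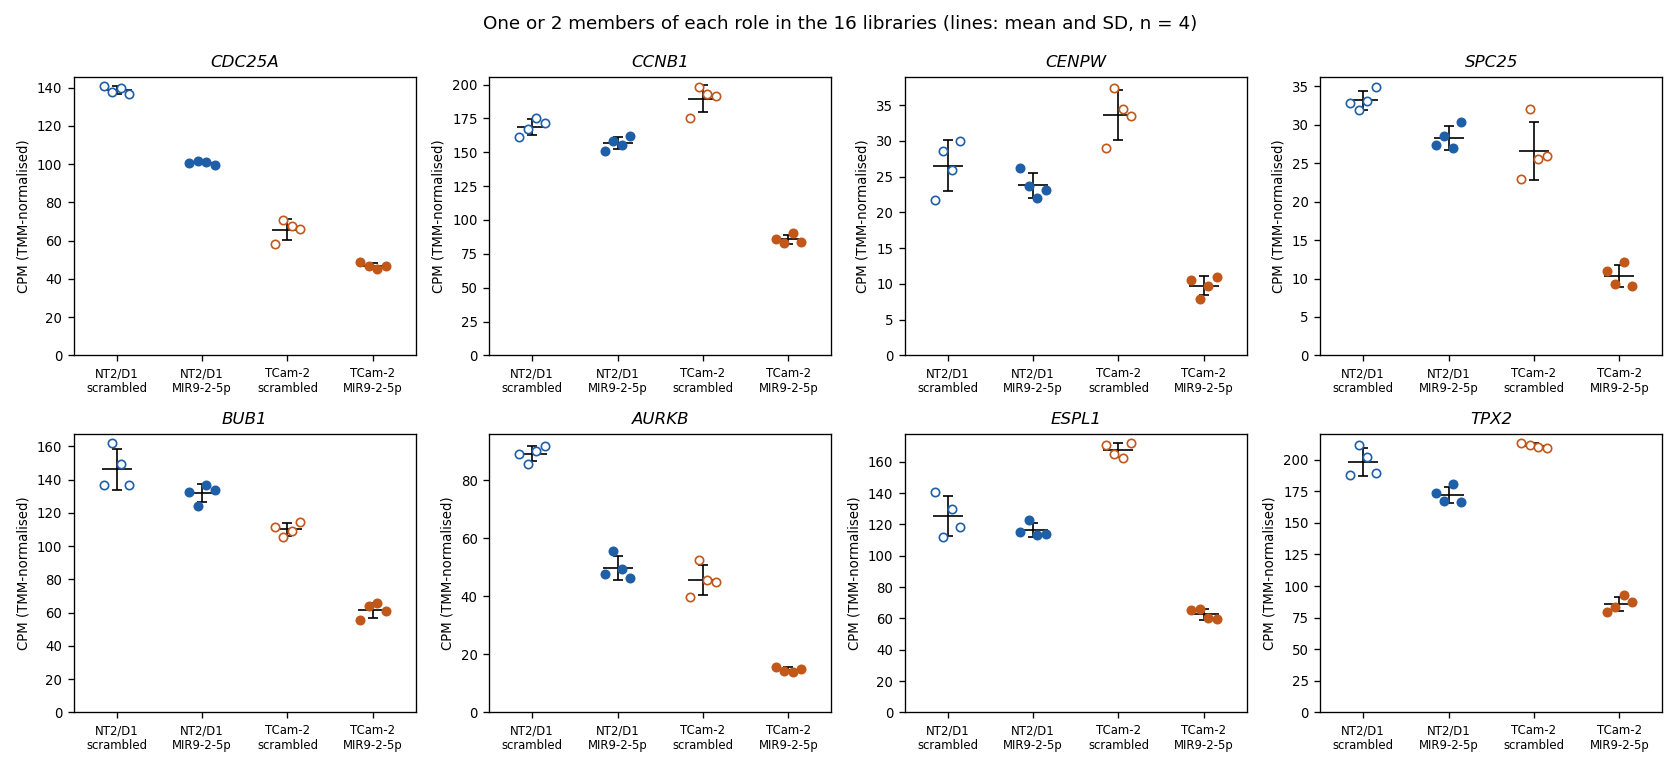
TMM-normalised CPM in each of the 16 libraries is plotted for 8 members (open points for scrambled, filled points for MIR9-2-5p), with the group mean and SD as lines. In TCam-2 every mimic library lies below every scrambled library for all 8, while in NT2/D1 the groups of CCNB1, CENPW, BUB1 and ESPL1 overlap.

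The genes of the inner centromere did not move as one group. In TCam-2 5 of 8 members fell, 2 rose and 1 did not pass (median -0.54), and in NT2/D1 5 fell and 3 did not pass (median -0.28), with 4 differences higher and 2 lower in NT2/D1. CENPW (chr6:126340115-126348875, plus strand), a small histone-fold protein that pairs with CENPT to anchor the outer kinetochore, had the largest fall of the 49 members in TCam-2. It was at 29.0, 37.4, 34.5 and 33.4 CPM in scrambled and 10.5, 7.84, 9.74 and 11 CPM in mimic-treated TCam-2, so that it fell by 1.77 on the log2 scale (SE 0.11, edgeR adjusted p = 2.14e-10). In NT2/D1 it was at 21.7, 28.5, 26.0 and 29.9 CPM in scrambled and 26.2, 23.7, 21.9 and 23.2 CPM in mimic-treated libraries, which overlapped and whose log2 fold change was -0.16 (SE 0.10, edgeR adjusted p = 0.189). Without scrambled replicate 1 of NT2/D1 the value there was -0.25 (edgeR adjusted p = 0.0389). The difference between the lines was 1.62 (SE 0.16, edgeR adjusted p = 4.42e-09). Its partner CENPT fell alongside it in TCam-2, from 157 ± 14.8 to 62.0 ± 5.23 CPM (log2 fold change -1.33, edgeR adjusted p = 1.02e-10), and was at 46.5 ± 3.30 and 41.1 ± 5.13 CPM in NT2/D1 (SD, n = 4, edgeR adjusted p = 0.099).

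CENPH, CENPI, CENPK and CENPM encode the 4 subunits of a single inner kinetochore complex, and they did not move together. CENPH (chr5:69189574-69210357, plus strand), the gene next downstream of CCNB1 on the same strand, was at 55.0, 67.3, 64.6 and 65.1 CPM in scrambled and 41.3, 37.2, 41.2 and 43.1 CPM in mimic-treated NT2/D1. In TCam-2 it was at 37.9, 41.8, 40.8 and 37.9 CPM in scrambled and 64.1, 63.6, 68.0 and 63.9 CPM in mimic-treated cells. The groups did not overlap in either line and their order was exchanged, so that the mimic-treated cells of each line were near the scrambled cells of the other. For CENPH the log2 fold change was -0.63 in NT2/D1 (SE 0.08, edgeR adjusted p = 5.41e-06) and 0.73 in TCam-2 (SE 0.07, edgeR adjusted p = 4.82e-08). The responses differed by -1.34 (SE 0.11, edgeR adjusted p = 8.69e-11), the smallest adjusted p of the role. No fit that left out a library or used another scaling ended these calls.

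CENPK (chr5:65517766-65563168, minus strand), which forms a dimer with CENPH, moved in the same directions by less. It was at 34.9, 44.8, 40.0 and 36.2 CPM in scrambled and 29.7, 26.4, 29.5 and 36.0 CPM in mimic-treated NT2/D1, and at 25.8, 29.9, 28.3 and 31.6 CPM and 32.4, 31.2, 39.8 and 37.6 CPM in TCam-2. The groups overlapped by a single library in each line. For CENPK the log2 fold change was -0.36 in NT2/D1 (SE 0.10, edgeR adjusted p = 0.00683) and 0.30 in TCam-2 (SE 0.09, edgeR adjusted p = 0.0085), with a difference of -0.64 (SE 0.15, edgeR adjusted p = 0.00065). CENPI, the third subunit, fell in TCam-2 (-0.70, edgeR adjusted p = 1.69e-05) and had a log2 fold change of -0.03 in NT2/D1 (edgeR adjusted p = 0.778), and CENPM fell in both lines (-0.62 in NT2/D1 and -0.37 in TCam-2). CENPH and CENPK are thus the members of this complex whose RNA rose in TCam-2 while that of CENPI and CENPM fell.

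The other inner members had their own patterns. CENPA, the histone H3 variant that marks the centromere, went from 81.7 ± 3.84 to 42.8 ± 3.52 CPM in TCam-2 (log2 fold change -0.92, edgeR adjusted p = 5.71e-09) and was at 29.3 ± 1.01 and 27.9 ± 1.37 CPM in NT2/D1 (SD, n = 4, edgeR adjusted p = 0.457). CENPU, a subunit that binds the kinase PLK1 at the kinetochore, fell by 0.80 in TCam-2 and 0.44 in NT2/D1. Of its exon length 14.9% overlaps PRIMPOL on the opposite strand. CENPN, which reads the CENP-A nucleosome, fell by 0.20 in NT2/D1 (edgeR adjusted p = 0.0452), a call lost in 6 of 8 fits without a library (highest edgeR adjusted p = 0.126), and was at 28.1 ± 1.97 and 28 ± 2.19 CPM in TCam-2 (SD, n = 4).

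**Figure D3:**
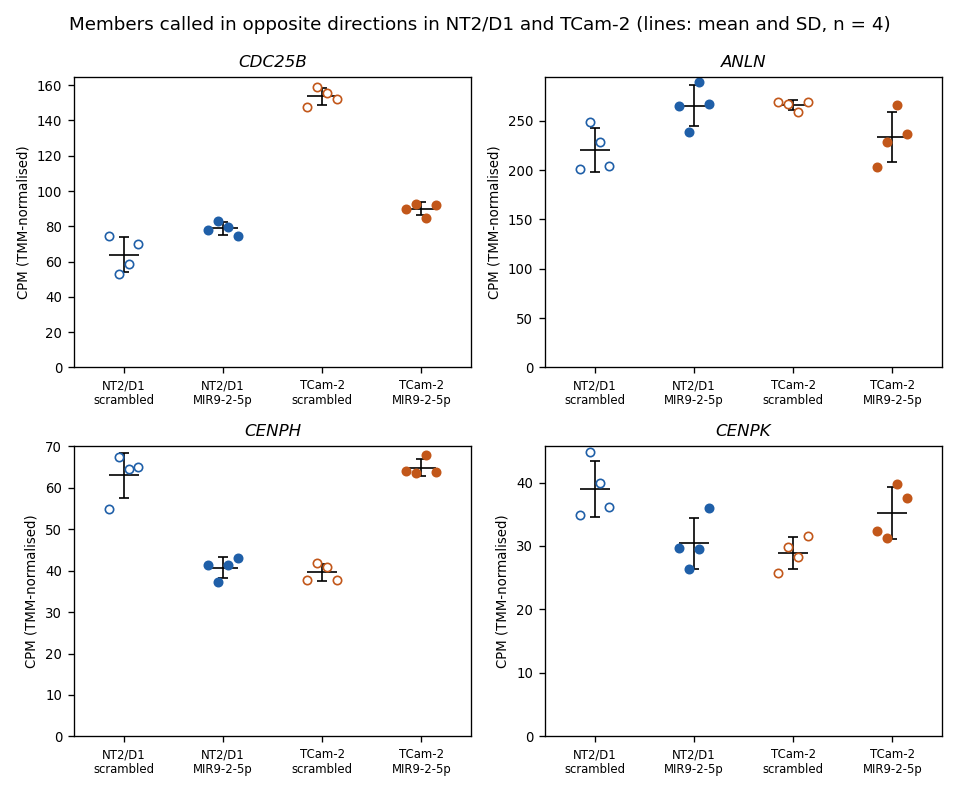
TMM-normalised CPM in each library is plotted for the 4 members called in opposite directions in the lines (open points for scrambled, filled points for MIR9-2-5p), with the group mean and SD as lines. CDC25B and ANLN are higher with the mimic in NT2/D1 and lower in TCam-2, and CENPH and CENPK the reverse.

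At the outer kinetochore, which grips the microtubules, 5 of 7 members fell in TCam-2 and 2 did not pass (median -0.60), and 3 fell and 4 did not pass in NT2/D1 (median -0.24). The response was higher in NT2/D1 for 3 of 7. The NDC80 complex, the main microtubule coupler, has 4 subunits, NDC80, NUF2, SPC24 and SPC25, and in TCam-2 3 of them fell. SPC25 (chr2:168834132-168913371, minus strand) was at 23.0, 32.0, 25.5 and 25.9 CPM in scrambled and 10.9, 9.27, 12.1 and 8.98 CPM in mimic-treated TCam-2, and at 32.9, 31.9, 33.0 and 34.9 CPM and 27.3, 28.5, 26.9 and 30.3 CPM in NT2/D1. The mimic libraries were lower without overlap in both lines. For SPC25 the log2 fold change was -1.35 in TCam-2 (SE 0.12, edgeR adjusted p = 1.76e-08) and -0.24 in NT2/D1 (SE 0.08, edgeR adjusted p = 0.0182), with a difference of 1.14 (SE 0.15, edgeR adjusted p = 3.68e-07). The call in NT2/D1 was lost without mimic replicate 1 or 3 (highest edgeR adjusted p = 0.0609) and with no filter on low counts (-0.21, edgeR adjusted p = 0.106).

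SPC24 (chr19:11131520-11155807, minus strand), which pairs with SPC25 at the inner end of the complex, showed the reverse order of the lines. It was at 34.3, 29.3, 31.1 and 36.0 CPM in scrambled and 24.0, 25.6, 22.6 and 26.1 CPM in mimic-treated NT2/D1, with no overlap, and at 32.0, 38.2, 30.1 and 30.6 CPM and 30.0, 30.7, 28.7 and 27.2 CPM in TCam-2, which overlapped. It fell by 0.42 in NT2/D1 (SE 0.09, edgeR adjusted p = 0.000819), the smallest adjusted p of the role there, and its log2 fold change was -0.16 in TCam-2 (SE 0.09, edgeR adjusted p = 0.129). Its responses differed by -0.24 (SE 0.13, edgeR adjusted p = 0.115), a value that passed without scrambled replicate 2 of TCam-2 (-0.34, edgeR adjusted p = 0.0263), with upper-quartile factors (-0.37, edgeR adjusted p = 0.0153), among genes with a mean count of at least 100 (-0.34, edgeR adjusted p = 0.0192) and among protein-coding genes alone (-0.34, edgeR adjusted p = 0.0236). NDC80 and NUF2, the microtubule-facing pair, fell by 0.60 and 0.72 in TCam-2, and in NT2/D1 NDC80 fell by 0.38 while NUF2 had a log2 fold change of 0.04 (edgeR adjusted p = 0.692).

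KNL1 (chr15:40594020-40664342, plus strand), the scaffold on which the BUB proteins dock, was not called in either line. It was at 48.1, 62.2, 55.6 and 44.4 CPM in scrambled and 51.4, 40.4, 57.0 and 53.2 CPM in mimic-treated NT2/D1, and at 48.3, 41.2, 47.6 and 42.6 CPM and 39.9, 40.9, 49.98 and 45.5 CPM in TCam-2, with full overlap. Its log2 fold change was -0.06 in NT2/D1 (SE 0.11, edgeR adjusted p = 0.67) and -0.02 in TCam-2 (SE 0.09, edgeR adjusted p = 0.873), and KNL1 holds the 7-base site shown above. CENPE, the kinesin that carries chromosomes to the spindle equator, fell by 0.64 in TCam-2 and had a log2 fold change of -0.26 in NT2/D1 (edgeR adjusted p = 0.087). CENPF fell by 0.52 in TCam-2 and was at 553 ± 69.0 CPM in scrambled and 626 ± 56.2 CPM in mimic-treated NT2/D1 (SD, n = 4, log2 fold change 0.18, edgeR adjusted p = 0.0911), which passed as a rise without mimic or scrambled replicate 2 (lowest edgeR adjusted p = 0.00643).

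Among the spindle checkpoint genes, 4 of 5 members fell and 1 did not pass in TCam-2 (median -0.34). In NT2/D1 MAD2L1 alone was called lower (20%, beside 29.1% of all genes, median -0.15). With upper-quartile factors BUB1, BUB1B and BUB3 were also called lower there. The difference was higher in NT2/D1 for BUB1 and lower for BUB1B (20% each, beside 27.9% and 25.3% of all genes). BUB1 (chr2:110637528-110678063, minus strand), a kinase recruited to unattached kinetochores, was at 112, 106, 109 and 114 CPM in scrambled and 55.5, 64.1, 65.8 and 60.7 CPM in mimic-treated TCam-2. In NT2/D1 it was at 137, 162, 149.5 and 136 CPM in scrambled and 133, 124, 137 and 134 CPM in mimic-treated libraries. The TCam-2 groups were far apart and the NT2/D1 groups overlapped at 136 to 137 CPM. For BUB1 the log2 fold change was -0.83 in TCam-2 (SE 0.07, edgeR adjusted p = 1.48e-08) and -0.15 in NT2/D1 (SE 0.07, edgeR adjusted p = 0.0807), with a difference of 0.69 (SE 0.10, edgeR adjusted p = 1.91e-06). The NT2/D1 value passed without scrambled replicate 4 (edgeR adjusted p = 0.0497) and with upper-quartile factors (-0.23, edgeR adjusted p = 0.0153).

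BUB1B (chr15:40161023-40221123, plus strand), which encodes BUBR1 of the inhibitor that blocks CDC20, did not fall with BUB1 in TCam-2. It was at 89.9, 85.0, 93.3 and 92.3 CPM in scrambled and 94.6, 98.8, 102 and 99.5 CPM in mimic-treated TCam-2, where every mimic library was above every scrambled library, and at 87.2, 102, 94.7 and 81.1 CPM and 79.4, 75.2, 88.8 and 88.8 CPM in NT2/D1, which overlapped. For BUB1B the log2 fold change was 0.15 in TCam-2 (SE 0.06, edgeR adjusted p = 0.0548) and -0.14 in NT2/D1 (SE 0.08, edgeR adjusted p = 0.17). The NT2/D1 value was near that of BUB1 (-0.15), and with upper-quartile factors BUB1B was called lower there (-0.21, edgeR adjusted p = 0.0437). In TCam-2 it passed as a rise with upper-quartile factors (0.17, edgeR adjusted p = 0.0319), among genes with a mean count of at least 100 and among protein-coding genes alone (lowest edgeR adjusted p = 0.0157), and without mimic replicate 1 (edgeR adjusted p = 0.0368). The difference of -0.27 (SE 0.10, edgeR adjusted p = 0.0341) was lost in 9 of 16 fits without a library (highest edgeR adjusted p = 0.0922). Of its exon length 10.2% is shared with the readthrough BUB1B-PAK6 and with PAK6.

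MAD2L1 (chr4:120055623-120066858, minus strand), which encodes MAD2 and holds a 7-base site, fell in both lines. It was at 90.8, 125, 114 and 100.4 CPM in scrambled and 72.4, 72.6, 81.3 and 84.1 CPM in mimic-treated NT2/D1, with no overlap, and at 75.1, 97.2, 95.4 and 90.0 CPM and 65.7, 66.2, 77.1 and 70.7 CPM in TCam-2, where scrambled replicate 1 lay within the mimic group. For MAD2L1 the log2 fold change was -0.47 in NT2/D1 (SE 0.09, edgeR adjusted p = 0.000358) and -0.34 in TCam-2 (SE 0.08, edgeR adjusted p = 0.00122), with a difference of -0.11 (SE 0.13, edgeR adjusted p = 0.494). BUB3, which carries BUB1 and BUBR1 to KNL1, had log2 fold changes of -0.16 in TCam-2 (edgeR adjusted p = 0.0258, lost in 4 of 8 fits without a library, highest 0.0772) and -0.15 in NT2/D1 (edgeR adjusted p = 0.103). With upper-quartile factors BUB3 was called lower in NT2/D1 (-0.22, edgeR adjusted p = 0.0203). TTK, the kinase that starts checkpoint signalling, fell by 0.44 in TCam-2 and had a log2 fold change of -0.15 in NT2/D1 (edgeR adjusted p = 0.224).

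All 4 genes of the chromosomal passenger complex, which corrects faulty attachments and later guides cleavage, fell in TCam-2 (median -0.93), while in NT2/D1 2 fell and 2 did not pass (median -0.19). The response was higher in NT2/D1 for all 4. AURKB (chr17:8204733-8210600, minus strand), its kinase, was at 88.9, 85.6, 90.1 and 92.0 CPM in scrambled and 47.9, 55.8, 49.6 and 46.3 CPM in mimic-treated NT2/D1. In TCam-2 it was at 39.8, 52.5, 45.5 and 44.8 CPM in scrambled and 15.7, 14.2, 13.8 and 15 CPM in mimic-treated cells. The groups were apart in both lines, and the ranges of mimic-treated NT2/D1 and scrambled TCam-2 overlapped. For AURKB the log2 fold change was -0.84 in NT2/D1 (SE 0.08, edgeR adjusted p = 5.66e-08), the largest fall of a member in that line, and -1.62 in TCam-2 (SE 0.09, edgeR adjusted p = 6.72e-11), with a difference of 0.79 (SE 0.12, edgeR adjusted p = 3.59e-06).

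BIRC5 (survivin, chr17:78214186-78225636, plus strand), which tethers the complex to centromeric chromatin, had the smallest adjusted p of the role in the difference of response. It was at 94.6, 114, 116 and 115 CPM in scrambled and 57.3, 55.5, 55.0 and 56.2 CPM in mimic-treated TCam-2, and at 105, 96.7, 109.6 and 120.5 CPM and 97.2, 109, 91.6 and 103 CPM in NT2/D1. The TCam-2 mimic libraries lay within a narrow band far below the scrambled ones, and the NT2/D1 groups overlapped. For BIRC5 the log2 fold change was -0.96 in TCam-2 (SE 0.07, edgeR adjusted p = 2.27e-09) and -0.11 in NT2/D1 (SE 0.08, edgeR adjusted p = 0.249), with a difference of 0.87 (SE 0.11, edgeR adjusted p = 3.55e-07). INCENP, the scaffold of the complex, fell by 0.89 in TCam-2 and by 0.27 in NT2/D1, where the call was lost in 4 of 8 fits without a library (highest edgeR adjusted p = 0.0801). CDCA8 (borealin), which holds a 7-base site at the start of its 3′ UTR, fell by 0.68 in TCam-2 and had a log2 fold change of -0.03 in NT2/D1 (edgeR adjusted p = 0.701).

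All 5 genes of anaphase entry and mitotic exit fell in TCam-2 (median -0.87), and 2 fell and 3 did not pass in NT2/D1 (median -0.13), with a higher response in NT2/D1 for 4 of 5. ESPL1 (chr12:53268299-53293638, plus strand) encodes separase, the protease that opens cohesin. It was at 170.5, 165, 162 and 172 CPM in scrambled and 65.2, 66.0, 60.0 and 59.4 CPM in mimic-treated TCam-2, and at 141, 112, 129.9 and 118 CPM and 115, 123, 113 and 114 CPM in NT2/D1. TCam-2 fell from the highest to the lowest of the 4 groups, and the NT2/D1 groups overlapped. For ESPL1 the log2 fold change was -1.41 in TCam-2 (SE 0.07, edgeR adjusted p = 6.48e-12), the smallest adjusted p of the 49 members there, and -0.11 in NT2/D1 (SE 0.08, edgeR adjusted p = 0.216), with a difference of 1.31 (SE 0.10, edgeR adjusted p = 4.2e-11). With upper-quartile factors ESPL1 was called lower in NT2/D1 (-0.19, edgeR adjusted p = 0.0418).

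UBE2C (chr20:45812576-45816957, plus strand), the enzyme that starts ubiquitin chains for the anaphase-promoting complex, had the smallest adjusted p of the role in NT2/D1. It was at 179, 174, 179.8 and 206 CPM in scrambled and 137, 123, 132 and 138 CPM in mimic-treated NT2/D1. TCam-2 had UBE2C at 185, 219.8, 217 and 190.2 CPM and 105, 113, 106 and 116 CPM, and neither line overlapped. It fell by 0.48 in NT2/D1 (SE 0.07, edgeR adjusted p = 2.31e-05) and by 0.87 in TCam-2 (SE 0.07, edgeR adjusted p = 5.05e-09), with a difference of 0.41 (SE 0.10, edgeR adjusted p = 0.00137). It has 5 pseudogene copies in the annotation. CDC20 fell in both lines (-1.28 in TCam-2 and -0.26 in NT2/D1), PTTG1 (securin), the inhibitor of separase, fell by 0.77 in TCam-2 with a log2 fold change of -0.10 in NT2/D1 (edgeR adjusted p = 0.311), and UBE2S, which extends the chains, fell by 0.60 in TCam-2. UBE2S varied more between replicates than the other exit genes, from 188 to 315 CPM in scrambled NT2/D1 alone, and its log2 fold change there was -0.13 (SE 0.14, edgeR adjusted p = 0.435).

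The spindle, chromosome structure and cytokinesis had 8 members, of which 6 fell and 2 did not pass in TCam-2 (median -0.59), and NT2/D1 had 4 falls, 1 rise and 3 members that did not pass (median -0.24), with a higher response in NT2/D1 for 5. TPX2 (chr20:31739271-31801805, plus strand), the spindle protein that activates AURKA, was at 214, 212, 209.7 and 209 CPM in scrambled and 79.3, 83.7, 93.1 and 87.3 CPM in mimic-treated TCam-2, and at 188, 212, 202 and 189.8 CPM and 174, 167, 180.4 and 166 CPM in NT2/D1. Both lines were lower with the mimic without overlap, TCam-2 by far the more. For TPX2 the log2 fold change was -1.29 in TCam-2 (SE 0.07, edgeR adjusted p = 1.9e-11) and -0.21 in NT2/D1 (SE 0.07, edgeR adjusted p = 0.0128, and 0.0519 without mimic replicate 4), with a difference of 1.09 (SE 0.09, edgeR adjusted p = 1.28e-10). AURKA, the kinase that TPX2 binds, had log2 fold changes of -1.19 in TCam-2 and -0.22 in NT2/D1. With no filter on low counts the NT2/D1 calls of TPX2 and AURKA were lost (edgeR adjusted p = 0.0721 and 0.0673).

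TOP2A (topoisomerase II alpha, chr17:40388525-40417896, minus strand), which untangles sister chromatids, had the smallest adjusted p of the role in NT2/D1. It was at 351, 443, 386 and 349 CPM in scrambled and 255, 243, 259 and 244 CPM in mimic-treated NT2/D1. TCam-2 had TOP2A at 229, 222, 230.5 and 232 CPM and 110.4, 116, 139 and 114 CPM, and the groups were apart in both lines. It fell by 0.62 in NT2/D1 (SE 0.08, edgeR adjusted p = 3.02e-06) and by 0.92 in TCam-2 (SE 0.07, edgeR adjusted p = 4.97e-09), and the difference of 0.32 (SE 0.11, edgeR adjusted p = 0.0137) was lost with upper-quartile factors (0.19, edgeR adjusted p = 0.157), among genes with a mean count of at least 100 and among protein-coding genes alone. The study had shown TOP2A in NT2/D1 from these libraries. HMMR, a spindle pole protein, fell by 0.32 in TCam-2 and 0.31 in NT2/D1, the latter call being lost in 5 of 8 fits without a library (highest edgeR adjusted p = 0.0845). NUSAP1 fell by 0.86 in TCam-2 and had a log2 fold change of -0.25 in NT2/D1 (edgeR adjusted p = 0.115), which passed with upper-quartile factors (-0.32, edgeR adjusted p = 0.0468). However, 86.8% of the exon length of NUSAP1 overlaps other genes on the same strand, so its counts are uncertain.

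Cytokinesis was represented by ANLN, ECT2 and PRC1. ANLN (anillin, chr7:36389821-36453791, plus strand), the scaffold of the contractile ring, was at 201, 248, 228 and 204 CPM in scrambled and 265, 239, 289.6 and 268 CPM in mimic-treated NT2/D1, with an overlap. TCam-2 had ANLN at 269, 267, 258 and 269.5 CPM and 204, 228, 266 and 236 CPM, which also overlapped. For ANLN the log2 fold change was 0.26 in NT2/D1 (SE 0.08, edgeR adjusted p = 0.01) and -0.18 in TCam-2 (SE 0.07, edgeR adjusted p = 0.042), with a difference of 0.46 (SE 0.11, edgeR adjusted p = 0.00125). Upper-quartile factors ended both calls within the lines (edgeR adjusted p = 0.0586 and 0.084), and the fall in TCam-2 was lost in 5 of 8 fits, without mimic replicate 1, 2 or 4 or scrambled replicate 1 or 4 (highest edgeR adjusted p = 0.153).

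ECT2 (chr3:172750682-172821474, plus strand), which activates RhoA to start the furrow, was at 132, 185, 158 and 143 CPM in scrambled and 146, 124, 161 and 162 CPM in mimic-treated NT2/D1. TCam-2 had ECT2 at 111, 115, 117 and 108 CPM and 90.1, 99.4, 131 and 107 CPM, and the groups overlapped in both lines. Its log2 fold change was -0.07 in both lines (SE 0.10 and 0.09, edgeR adjusted p = 0.61 and 0.525). It passed in TCam-2 without mimic replicate 3 (-0.18, edgeR adjusted p = 0.0137). PRC1 (chr15:90966040-90995629, minus strand), which bundles the microtubules of the midzone, gave only 112 to 191 counts per group, with 1.46, 1.89, 1.88 and 2.12 CPM in scrambled and 1.36, 1.78, 1.26 and 1.02 CPM in mimic-treated NT2/D1. In TCam-2 it was at 1.86, 1.98, 2.35 and 3.27 CPM and 3.98, 2.26, 2.04 and 2.52 CPM, overlapping in both lines (log2 fold change -0.45, SE 0.25, edgeR adjusted p = 0.136 in NT2/D1, and 0.23, SE 0.25, edgeR adjusted p = 0.418 in TCam-2). Of its exon length 57.6% overlaps another gene on the same strand and 34.3% PRC1-AS1 on the opposite strand, so how many of its reads were counted is unknown. Its response to the mimic was not called, and smaller changes would not have been detected at this SE. Among mimic-treated cells PRC1 was lower in NT2/D1 than in TCam-2 (log2 difference -1.04, SE 0.26, edgeR adjusted p = 0.0017).

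Before the mimic, the lines were mixed in their levels of these genes. In scrambled cells 24 members were higher and 15 lower in NT2/D1 than in TCam-2 (edgeR quasi-likelihood test), beside 39.8% and 39.4% of all genes, and the median difference of the members was 0.14 on the log2 scale. In mimic-treated cells 32 were higher and 8 lower in NT2/D1, beside 40.7% and 40.3% of all genes, with a median of 0.54. These 2 comparisons rest on the same cultures as the responses and add no independent evidence of them. The summed CPM of the 49 members was 5801 ± 129 in scrambled and 5119 ± 105 in mimic-treated NT2/D1, and 5070 ± 179 in scrambled and 3194 ± 85.5 in mimic-treated TCam-2 (SD, n = 4), so mimic-treated TCam-2 had the lowest sum of the 4 groups.

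The widest gaps between the lines in scrambled cells were those of centromere and kinetochore genes. CENPF, a large protein of the outer corona, was 3.66-fold higher in scrambled NT2/D1 than in scrambled TCam-2 and 5.92-fold higher with the mimic (edgeR adjusted p = 9.06e-13 and 5.7e-14), and CENPI was 3.17-fold and 5.02-fold higher (edgeR adjusted p = 3.71e-11 and 3.16e-12). CENPA had the largest difference in favour of TCam-2 in scrambled cells, with a log2 difference of -1.48 in scrambled and -0.64 in mimic-treated cells (SE 0.07 and 0.08, edgeR adjusted p = 2.8e-12 and 2.19e-06). CDC25A stayed at a constant distance, 2.11-fold higher in NT2/D1 in both conditions. CDK1 was lower in NT2/D1 than in TCam-2 in scrambled cells (log2 difference -0.60, edgeR adjusted p = 2.64e-07) and did not differ detectably with the mimic (0.04, SE 0.09, edgeR adjusted p = 0.695). CENPW, ESPL1 and CCNB1 were lower in NT2/D1 in scrambled cells (log2 difference -0.34, -0.42 and -0.17) and higher there with the mimic (1.26, 0.87 and 0.85), and CENPH went from 0.67 to -0.69. TPX2 and BIRC5 were called in scrambled cells in neither direction (log2 difference -0.09 and -0.03, edgeR adjusted p = 0.185 and 0.769) and were higher in NT2/D1 with the mimic (0.98 and 0.82).

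**Figure D4:**
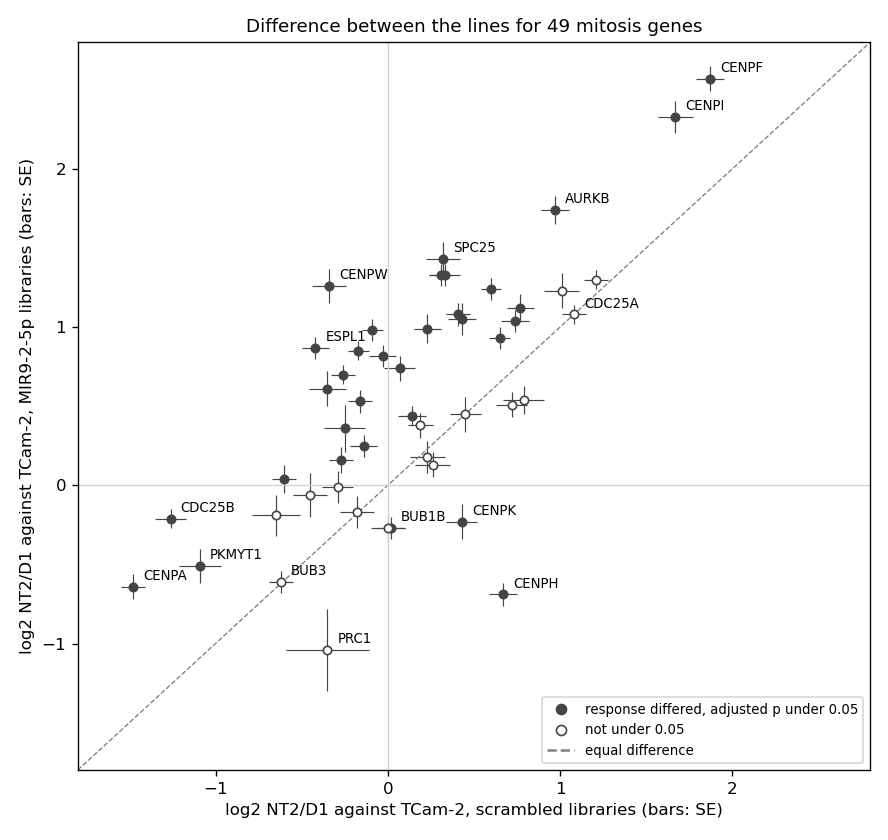
The log2 difference between NT2/D1 and TCam-2 in scrambled libraries (x axis) is plotted against that in MIR9-2-5p libraries (y axis) for the 49 members, with standard errors, and filled points had a called difference of response. Filled points lie above the line of equal difference for 30 members and below it for CENPH, CENPK and BUB1B.

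The promoters of late cell cycle genes are known for short shared motifs, and the members' promoters were searched because most members fell in TCam-2. RefSeq promoters (GRCh38.p14, 250 bases before to 50 after the start of a gene) were matched for 37 of the 49 members. Windows around the cell cycle genes homology region (CHR, TTTGAA or TTCGAA) are shown for 3 genes that fell strongly in TCam-2 (CENPW, SPC25 and ESPL1), for BUB1 and BUB1B, and for ANLN and ECT2, with the motif in capitals.
CENPW: ttggcggcggaTTCGAAcgttcggactg
SPC25: agtgcactaggTTTGAAatcggaaagtt
ESPL1: agccgcggataTTTGAAaggagggtctg
BUB1: tgcgcggggtaTTCGAAtcggcggcggc
BUB1B: ggaccgttaaaTTTGAAacttggcggct
ANLN: tgaaattcaaaTTTGAAcggctgcagag
ECT2: agcagcttagttTTTGAAtcggttgtgg
The windows lie at chr6:126340121-126340148 (plus strand) for CENPW, chr2:168890417-168890444 (minus) for SPC25, chr12:53268257-53268284 (plus) for ESPL1, chr2:110678046-110678073 (minus) for BUB1, chr15:40161035-40161062 (plus) for BUB1B, chr7:36389831-36389858 (plus) for ANLN and chr3:172750748-172750775 (plus) for ECT2. On either strand a CHR was found in 24 of the 37 member promoters (64.9%) and in 16.4% of 35116 promoters of the table. The CCAAT box was found in 29 (78.4%) against 34.6%, and the E2F site TTCCCGC in 5 (13.5%) against 6.55%. Members with and without a CHR had median log2 fold changes of -0.78 and -0.70 in TCam-2 and -0.19 and -0.23 in NT2/D1. The windows shown are chosen examples, and a part of the CHR in the responses was not tested. A match of letters is not evidence that a factor binds, and the lists were not chosen independently of cell cycle expression.

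Other genes of mitosis are given by list, to be read beside the 32.7% of all genes called lower and 33.7% called higher in TCam-2 and the 29.1% and 30.2% in NT2/D1. Of 16 subunits and coactivators of the anaphase-promoting complex, 8 fell and 5 rose in TCam-2 and 3 fell and 1 rose in NT2/D1. The gene that rose was ANAPC13, a small subunit, which went from 40.1 ± 2.32 to 75.4 ± 5.21 CPM in NT2/D1 (SD, n = 4, log2 fold change 0.91, edgeR adjusted p = 3.9e-08). Of 16 genes of cohesin and its regulators 6 fell and 5 rose in TCam-2 (37.5% and 31.2%, near the shares of all genes) and 4 fell and 2 rose in NT2/D1 (25% and 12.5%, below them), and of 8 condensin genes 4 fell and 2 rose in TCam-2 and 4 fell in NT2/D1. Of 26 further centromere and kinetochore genes, 11 fell and 4 rose in TCam-2 (median -0.20) and 13 fell and none rose in NT2/D1 (median -0.29). For that list the difference of response was higher in NT2/D1 for 7 and lower for 5 (26.9% and 19.2%). These shares were near or below the 27.9% and 25.3% of all genes.

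Of 12 further checkpoint genes and mitotic kinases, 7 fell and 3 rose in TCam-2 and 4 fell and 5 rose in NT2/D1. ENSA, an inhibitor of the phosphatase that opposes CDK1, fell in NT2/D1 from 482 ± 24.3 to 304 ± 7.70 CPM (SD, n = 4, log2 fold change -0.67, edgeR adjusted p = 7.78e-08). NEK2, a kinase of centrosome separation, rose in NT2/D1 (log2 fold change 0.42, SE 0.08, edgeR adjusted p = 0.000126) and fell in TCam-2 (-0.99, SE 0.09, edgeR adjusted p = 2.95e-08). Of 12 genes of the DREAM and MuvB complexes, which repress or activate late cell cycle genes, 3 fell and 3 rose in TCam-2 (25% each) and 4 fell and 3 rose in NT2/D1 (33.3% and 25%), shares near or below those of all genes. Among them LIN37 had the largest difference of response (2.84, SE 0.42, edgeR adjusted p = 3.33e-06) but averaged only 0.448 to 4.00 CPM in the 4 groups. Of 9 proliferation marks all 9 fell in TCam-2 and 6 fell and 1 rose in NT2/D1. CDCA3, a trigger of WEE1 destruction, went from 98.7 ± 8.31 to 42.2 ± 0.876 CPM in TCam-2 (SD, n = 4, log2 fold change -1.21, edgeR adjusted p = 9.59e-11) and was at 111 ± 4.03 and 107 ± 2.84 CPM in NT2/D1 (edgeR adjusted p = 0.42).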

How the data were processed

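RNA from NT2/D1 and TCam-2 cells transfected with MIR9-2-5p or scrambled mimics (4 biological replicates each, 16 libraries) was sequenced, and the authors deposited 1 table of whole-number read counts per gene. Per the labels its upstream tools were Trim Galore, cutadapt, FastQC, STAR and featureCounts, with GRCh38 as the build. Which annotation and which strand option featureCounts used is not given in the sources used here. Antisense and overlapping genes are therefore uncertain. The sources differ on the trimming tool (fastp in the methods, Trim Galore in the processing notes). Symbols, positions and 3′ UTRs came from GENCODE 44 and promoters and the miRNA from RefSeq.

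Each line was fitted alone with edgeR 4.0.16 in R 4.3.3 (TMM, minimum count 10, minimum total 15, robust quasi-likelihood test, Benjamini-Hochberg over all genes), the difference of response as an interaction over all 16 libraries, and the lines within each treatment. Calls had an adjusted p under 0.05. Alternatives were RLE and upper-quartile factors, DESeq2 1.42.0, other filters, protein-coding genes alone, glmTreat at a fold of 1.5, 1 fit of all libraries, a replicate block and leaving out each library. Scripts were tested on simulated counts. The lowest library held 14167738 counts, and PRC1, at 112 to 191 counts per group, was limited by counting error. No replicate libraries agreed within sampling noise.

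All members are given by role. Those given in every sample are, per role, the members with the smallest adjusted p in each line and in the difference, and every member called higher, called in opposite directions or called in neither line. Of the other lists, the 2 genes per line with the smallest adjusted p and the 2 with the largest opposite changes are named. The members and lists were chosen with earlier results of these data known.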

Additional observations from a re-analysis of the deposited data

Results flagged for a closer look

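The response to the mimic differed between the lines for 33 of the 49 members by edgeR's interaction test (adjusted p under 0.05). As NT2/D1 minus TCam-2 on the log2 scale, the differences among the entry genes were 0.66 for CDK1, 1.04 for CCNB1, 0.72 for CCNB2, 0.32 for CKS1B, 1.02 for CKS2, 1.08 for CDC25B, 0.98 for CDC25C, 0.30 for WEE1 and 0.60 for PKMYT1. Among the centromere and kinetochore genes they were 0.86 for CENPA, -1.34 for CENPH, 0.68 for CENPI, -0.64 for CENPK, 0.37 for CENPU, 1.62 for CENPW, 0.71 for CENPF, 0.78 for NUF2 and 1.14 for SPC25. The checkpoint and passenger genes gave 0.69 for BUB1, -0.27 for BUB1B, 0.79 for AURKB, 0.87 for BIRC5, 0.63 for INCENP and 0.66 for CDCA8. Differences of 1.04 for CDC20, 0.41 for UBE2C, 0.70 for PTTG1 and 1.31 for ESPL1 were found among the exit genes, and of 0.98 for AURKA, 1.09 for TPX2, 0.63 for NUSAP1, 0.32 for TOP2A and 0.46 for ANLN among the spindle and cytokinesis genes. With upper-quartile factors the calls of CKS1B (0.19, edgeR adjusted p = 0.0874), WEE1 (0.17, edgeR adjusted p = 0.112), CENPU (0.25, edgeR adjusted p = 0.095) and TOP2A (0.19, edgeR adjusted p = 0.157) were lost, and with no filter on low counts that of BUB1B (-0.25, edgeR adjusted p = 0.101).

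A single library stood apart from its 3 replicates in 6 of 196 gene and group combinations by Dixon's test, which chance alone flags in about 1 in 20. In mimic-treated TCam-2, replicate 1 had 62.9 CPM of CCNB2 (the others 71.4 to 72.7) and 37.0 CPM of PTTG1 (44.4 to 45), and replicate 3 had 68.0 CPM of CENPH (63.6 to 64.1). In scrambled TCam-2, replicate 1 had 94.6 CPM of BIRC5 (114 to 116) and 111 CPM of AURKA (127 to 129). In mimic-treated NT2/D1, replicate 2 had 36.1 CPM of TTK (44.2 to 45.5).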

How the results depend on the processing

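More members were called lower in TCam-2 than in NT2/D1 under every alternative run. Tested against a fold of 1.5, genes called lower and higher numbered 1715 and 2192 in NT2/D1 (members 1 and 0), 1996 and 2182 in TCam-2 (members 23 and 1), and 2486 and 2753 in the difference of response (members 1 and 13). The same setting gave 4512 and 4694 genes (members 3 and 10) between the lines in scrambled cells and 2 members lower in NT2/D1 in mimic-treated cells. Upper-quartile factors gave 1 member higher in NT2/D1 and shifted the median difference of response of all genes by -0.13, and the members with a lower response in NT2/D1 numbered 5 under these factors, with a mean count of at least 100, and among protein-coding genes alone. Members with an 8mer alone numbered 0 and with any 6-base match 15, and on the given strand alone CCAAT was in 18 and TTCCCGC in 2 member promoters.

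Leaving out each library gave 4711 to 5149 genes lower and 4923 to 5437 higher in NT2/D1 (members 19 to 25 and 1 to 3), 5205 to 5650 and 5279 to 5782 in TCam-2 (members 39 to 42 and 2 to 3), and 4716 to 4909 and 5136 to 5577 in the difference (members 2 to 3 and 30 to 32). Between the lines it gave 6740 to 7067 and 7000 to 7332 genes in scrambled cells (members 12 to 16 and 20 to 25) and 7237 to 7538 and 7321 to 7676 in mimic-treated cells (members 8 to 10 and 31 to 35).

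Direction changed only for values that were not called, which lay within 0.11 of 0 except that of PRC1 in TCam-2 (0.23). Those in NT2/D1, over the fits that left out a library, were NUF2 (-0.0017 to 0.092, and -0.033 with upper-quartile factors), CDC25C (-0.097 to 0.045), CENPI (-0.085 to 0.042), KNL1 (-0.13 to 0.038) and ECT2 (-0.13 to 0.035). In TCam-2 CENPN ranged from -0.056 to 0.036 and was -0.011 with RLE factors, -0.025 with DESeq2, -0.0024 with no filter and -0.0075 in 1 fit of all libraries. KNL1 there ranged from -0.083 to 0.03 and was 0.0078 with upper-quartile factors, 0.015 with a mean count of at least 100 and 0.024 among protein-coding genes, PRC1 ranged from -0.026 to 0.39 and ECT2 from -0.18 to 0.0087. With the same 3 settings in that order, the difference of response was -0.11, -0.08 and -0.074 for ECT2 (-0.0031 with RLE factors, -0.05 to 0.14 on leaving out a library), -0.11, -0.079 and -0.071 for CDC25A (-0.027 to 0.085), -0.095, -0.067 and -0.06 for BUB3 (-0.016 to 0.079) and -0.099, -0.07 and -0.064 for HMMR (-0.054 to 0.15). It was -0.015 for FOXM1 with upper-quartile factors, and -0.094 to 0.073 for KNL1 on leaving out a library.

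The replicate numbers did not pair the samples (same-number correlations of -0.196 to 0.04 within lines). With the number as a block, NT2/D1 had 21 members called lower and 2 higher, TCam-2 had 39 and 2, and the difference of response had 2 and 30, and the calls lost were those of WEE1, CENPN and HMMR in NT2/D1, BUB3 and ANLN in TCam-2 and BUB1B in the difference. The cause of these shifts was not tested.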

Other observations

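Compared per kilobase of annotated exon, so that genes of different length can be set side by side, the members spanned a wide range. In scrambled NT2/D1 CKS2 (194 CPM per kilobase), UBE2C (144) and CDC20 (136) were the highest, and in scrambled TCam-2 UBE2C (158), CKS2 (154) and UBE2S (139). In mimic-treated TCam-2 UBE2S (91.0) and UBE2C (85.4) led, and CKS2 had gone to 57.3. The large kinetochore proteins CENPE and KNL1 were at 3.59 to 5.83 CPM per kilobase in all 4 groups, whereas CENPF was at 44.3 and 50.2 in NT2/D1 and 12.1 and 8.36 in TCam-2.

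BUB1 and BUB1B were at 17.5 and 20.2 CPM per kilobase in scrambled TCam-2 and at 9.76 and 22.1 with the mimic, while in NT2/D1 they were at 23.2 and 20.4 and then at 20.9 and 18.6. Separase (ESPL1) and its inhibitor securin (PTTG1) were at 18.8 and 37.3 CPM per kilobase in scrambled TCam-2 and at 7.05 and 21.7 with the mimic, and at 14.1 and 39.2 and then 13.1 and 36.7 in NT2/D1. These levels were not tested against each other. Between the responses of the lines, Pearson's r was -0.025 and Spearman's rho was -0.051 across the 49 members, a description over genes, which are not independent replicates.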
